A study of Mus musculus with 14 samples.

Results

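The clustered protocadherins were followed in RNA sequencing libraries from the hippocampus of 14 mice. Members were the gene symbols of the Pcdha, Pcdhb and Pcdhg clusters in the authors' deposited tables: 14 alpha genes (Pcdhac1 and Pcdhac2 included), 22 beta genes and 22 gamma genes, 58 of 53321 symbols in those tables. All mice were C57BL6, aged 30 days. They were wild type (KMT2D+/+) or heterozygous for the bGeo allele of the histone methyltransferase gene Kmt2d (KMT2D+/bGeo, called mutant below). From 2 weeks of age they received, for 2 weeks, either TAK-418, which blocks the histone demethylase LSD1, at 1 mg/kg/day by gavage in methylcellulose, or methylcellulose alone (vehicle). Vehicle was given to 3 wild types and 3 mutants, and TAK-418 to 5 wild types and 3 mutants, with 1 library per mouse. The series title and design ask whether the drug reverses changes that come with the mutant allele.

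Clustered protocadherins are homophilic adhesion proteins of the cadherin superfamily, carried mainly by neurons. In the alpha and gamma clusters each gene has its own first exon, which encodes the outer part, the membrane span and the start of the tail, and which is spliced to constant exons shared by the whole cluster. Beta genes are mostly single exons with no constant part. Each neuron is thought to switch on a small random set of the alternate isoforms through promoters bound by CTCF, while the C-type isoforms at the end of the alpha and gamma clusters are used by most neurons. The combination is known for giving a neuron an identity for self-avoidance and for neuron survival.

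All 58 genes lie on the plus strand of mouse chromosome 18 (GRCm38, GENCODE M21 annotation). The alpha cluster spans 36930184 to 37187661, the beta cluster 37264938 to 37524479 and the gamma cluster 37661793 to 37841873. The 3 constant exons of the alpha cluster have 59, 89 and 2712 bases, and those of the gamma cluster 59, 89 and 1971 bases. Sequence shared between members limits how well reads can be given to single genes. In the longest annotated first exon of each gene, windows of 50 bases that also occurred in another member made up a median of 14.2% in alpha, 4.26% in beta and 0.730% in gamma genes. The share reached 23.4% in Pcdha7, where Pcdha8 held most of the shared windows. It was 0 in each of the 5 C-type genes Pcdhac1, Pcdhac2, Pcdhgc3, Pcdhgc4 and Pcdhgc5.

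Levels are given as scaled abundance, the deposited abundance score of the assembled transcripts of a gene, which behaves like fragments per kilobase and per M fragments, divided by a library factor. A gene stands at 0 in a library where no transcript was assembled for it. It also does where a transcript over its exon was assigned to another gene or to none, as with Pcdhgb7 in wild-type TAK-418 replicate 5. A 0 therefore does not show absence of expression. Relative depth, read from the step between low values, was 167.6 M in wild-type TAK-418 replicate 1 and between 35.1 and 59.98 M elsewhere. Neuronal markers (5 of 5 listed in all libraries) summed to 1207 to 1975. Choroid plexus markers (8 genes, 3 listed in every library) summed to 15.9 to 6481, with the highest sums in wild-type vehicle replicate 3 (6481) and mutant vehicle replicate 1 (5049). Under vehicle, the targeted gene Kmt2d had a mean of 13.99 ± 0.233 (SD, n = 3) in wild types and of 11.9 ± 2.14 (SD, n = 3) in mutants. Under TAK-418 these means were 15.2 ± 2.37 (SD, n = 5) and 12.4 ± 2.73 (SD, n = 3). Single values of wild types and mutants overlapped, from 12.5 to 17.99 against 9.35 to 14.6, so this gene's level does not check each label.

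Almost all alpha and gamma transcripts that lay on an own exon were spliced to the constant exons. Transcripts on the constant exons alone were not counted, and the splice end of the own exon was not checked against the annotation. Of 183 such alpha transcripts in the 14 libraries, 178 joined an own exon to the constant exons, and these held 99.9% of the abundance of the 183. Of 307 such gamma transcripts, 306 did so. Beta genes had 152 transcripts, of which 82 had a single exon and held 81.1% of the beta abundance. Among the transcripts counted here, 16 of beta and 3 of gamma genes covered the own exons of more than 1 member.

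Gamma genes supplied most of the clustered protocadherin abundance. Their share of the summed abundance was 75.7% ± 2.15 (SD, n = 14), against 20.3% ± 1.02 (SD, n = 14) for alpha and 4.00% ± 2.18 (SD, n = 14) for beta genes. The 5 C-type isoforms alone held 45.2% ± 2.67 (SD, n = 14). The listing of the families also differed. Each library listed 10 to 13 of the 14 alpha genes, 19 to 21 of the 22 gamma genes and 1 to 9 of the 22 beta genes. In all 14 libraries were listed 7 alpha, 18 gamma and 0 beta genes.

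**Figure D1:**
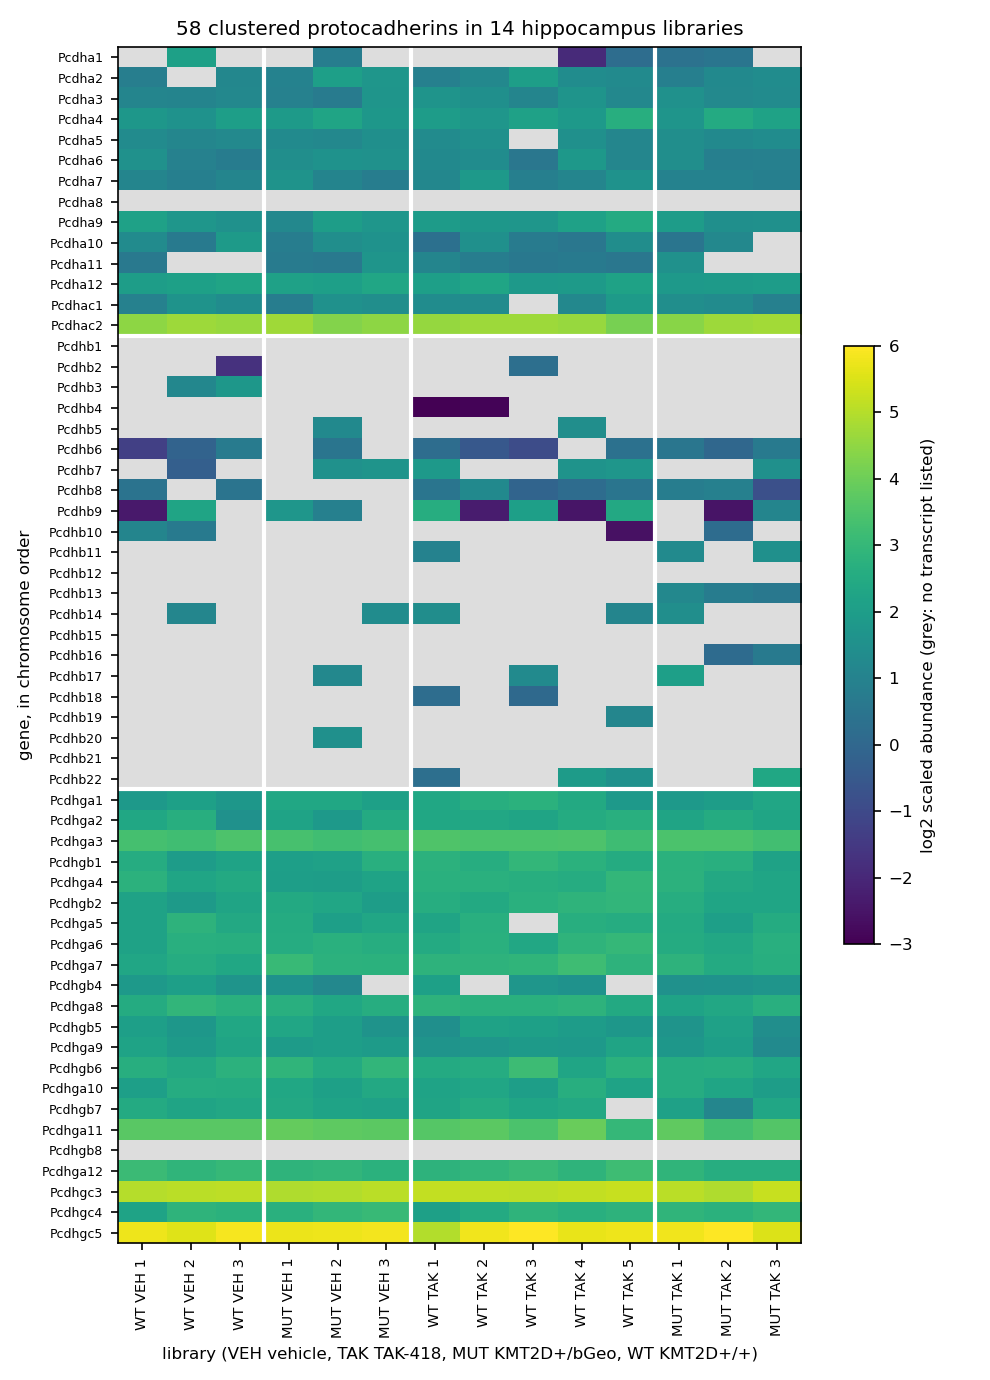
Scaled abundance (log2, colour) of the 58 genes, one row each in chromosome order, in the 14 libraries (columns, grouped by genotype and treatment), with grey where no transcript was listed. Pcdhac2, Pcdhgc3 and Pcdhgc5 are the brightest rows in every library, and the beta rows are mostly grey.

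Among the C-type isoforms, Pcdhgc5 had the highest mean abundance of all members. Its scaled abundance was 54.6, 47.0 and 58.4 in the wild-type vehicle libraries, 53.0, 54.5 and 56.9 in mutant vehicle, 31.3, 56.3, 67.3, 52.4 and 54.9 in wild-type TAK-418, and 55.8, 65.2 and 45.7 in mutant TAK-418 libraries. All groups overlapped, and the lowest value belonged to the most deeply sequenced library. In that library the only transcript on the Pcdhgc5 exon also covered the exon of Pcdhgc4, which encodes an isoform needed for neuron survival. Pcdhgc5 led the gamma family in 13 of 14 libraries, and Pcdhgc3 led in that 1 library.

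Pcdhgc3, an isoform also known outside neurons, had a scaled abundance of 32.0, 33.6 and 34.6 in wild-type vehicle, 30.1, 31.4 and 33.8 in mutant vehicle, 36.3, 34.9, 34.1, 36.4 and 38.2 in wild-type TAK-418, and 33.6, 30.2 and 38.0 in mutant TAK-418 libraries. Wild-type TAK-418 libraries lay toward the upper end: all were above the mutant vehicle libraries, and they overlapped with the other groups. The 2 libraries with the highest choroid plexus sums had 34.6 and 30.1, the latter the lowest of the 14 libraries.

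Pcdhac2, the last variable exon of the alpha cluster, led the alpha family in all 14 libraries and held 43.8% ± 5.68 (SD, n = 14) of its abundance. Its scaled abundance was 22.1, 25.4 and 24.4 in wild-type vehicle, 26.3, 19.9 and 22.0 in mutant vehicle, 23.7, 25.5, 25.5, 24.5 and 17.6 in wild-type TAK-418, and 21.2, 26.0 and 26.9 in mutant TAK-418 libraries. The groups overlapped throughout.

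The remaining C-type genes were much lower. Pcdhgc4 ranged from 4.35 to 8.42 with a median of 6.92 over the 14 libraries. Pcdhac1 ranged up to 3.71 with a median of 2.58 and was not listed in wild-type TAK-418 replicate 3. In the order of mean levels, the ranges of Pcdhgc5 and Pcdhgc3 overlapped only through wild-type TAK-418 replicate 1, and those of Pcdhac2 and Pcdhga11 (8.04 to 15.5) did not overlap. Those of Pcdhgc3 and Pcdhac2 did not overlap either, but with all transcripts on its own exon counted Pcdhac2 reached 30.6, above the lowest Pcdhgc3 value of 30.1. Pcdhga11 and Pcdhga3 (9.25 to 11.6) did overlap.

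**Figure D2:**
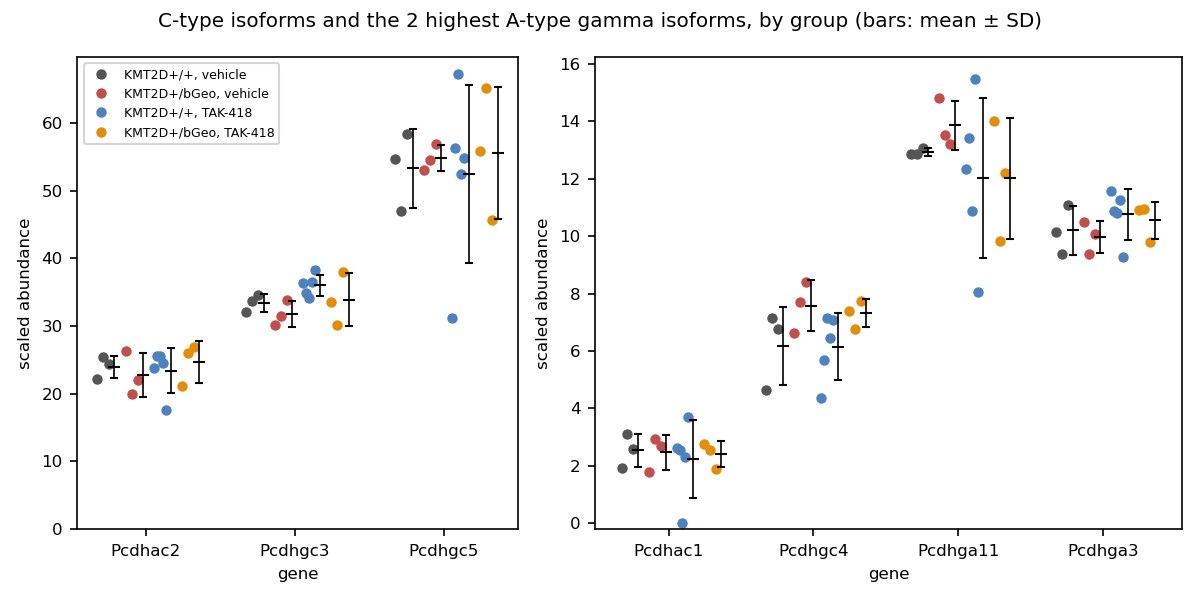
Scaled abundance of the 5 C-type isoforms and of Pcdhga11 and Pcdhga3 (points: single libraries, coloured by group, bars: mean ± SD with n = 3, 3, 5 and 3). Groups of a gene mostly overlap, except that mutant vehicle lies above wild-type vehicle for Pcdhga11 and below wild-type TAK-418 for Pcdhgc3. The low Pcdhgc5 point at 31.3 is replicate 1 of treated wild types.

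No C-type isoform passed the threshold in any of the 6 contrasts. These were the interaction, genotype within each treatment, drug within each genotype, and mutants on TAK-418 against wild types on vehicle. The limma model gave a smallest Benjamini-Hochberg adjusted p of 0.689 over these 30 tests, and 0 had an unadjusted p under 0.05. Fitted differences were -0.30 to 0.28 on the log2 scale with standard errors of 0.07 to 0.63, so the precision differed widely between the genes. Pcdhgc3 was the most precise: its fitted drug difference in wild types was 0.10 with a standard error of 0.07 (limma adjusted p = 0.689).

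The alternate alpha isoforms had low levels. Among Pcdha1 to Pcdha12, the median of the gene means was 2.38 and the highest mean was 4.22, that of Pcdha12. Pcdha12 ranged from 3.55 to 5.01 and Pcdha4 from 3.03 to 6.24. Pcdha9, whose log2 values spread most among alpha genes listed in every library (SD 0.27, n = 14), ranged from 2.28 to 5.61. Pcdha1 was listed in 6 libraries and Pcdha8 in 0. A joint locus keeps the deposited tables from showing the group value of either gene. Across the 11 listed genes, level and position along the cluster had a Spearman's rho of 0.15, a description over genes that share all libraries.

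The gamma A and gamma B isoforms had higher mean levels. Gene means had a median of 5.95 in the 12 A-type genes and 4.47 in the 7 B-type genes. Pcdhga11 averaged 12.6 and Pcdhga3 10.4, the highest of them. Under vehicle, Pcdhga11 had 12.8 to 13.1 in wild types and 13.2 to 14.8 in mutants. In mutant TAK-418 replicate 2 and wild-type TAK-418 replicate 5 a transcript on the Pcdhga11 exon also covered that of Pcdhgb7. Pcdhga11 was lowest in those libraries, at 9.82 and 8.04, and Pcdhgb7 was unlisted in the second. Pcdhga1, with the widest log2 spread of the gamma genes listed in every library (SD 0.27, n = 14), ranged from 3.40 to 6.77. Pcdhgb8, which the annotation calls a polymorphic pseudogene, was listed in 0 libraries. The rank order of the gamma genes was similar between libraries, with a median Spearman's rho of 0.80 over 91 library pairs, against 0.74 for alpha and 0.25 for beta genes.

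Some alpha transcripts carried an additional splice inside the last constant exon. This intron of 428 bases (37185048 to 37185475 on chromosome 18) was seen in 12 of 14 libraries with a summed abundance of 1.56 to 7.16, and in 10 of them on Pcdhac2. Alternative splicing of this exon is known to give the alpha proteins longer or shorter cytoplasmic tails. The intron was absent from the assemblies of mutant vehicle replicate 1 and wild-type TAK-418 replicate 4, and the groups overlapped. Those on Pcdhac2 are counted neither in the Pcdhac2 levels and alpha shares above nor in the alpha totals below. Counting all transcripts on the own exon of Pcdhac2 gave 17.6 to 30.6 with a median of 26.6.

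Pcdhgc5 was assembled mostly with 1 of 2 ends of its first exon, at 37819712 and 37822134 of chromosome 18. Transcripts with another end, at 37824664, appeared in 4 libraries with an abundance of 2.07 to 4.38; they were assigned to the overlapping gene Gm38182 and are not counted in the shares that follow. The shorter form made up 6.62% to 35.9% of both forms in 13 libraries and was not listed in wild-type TAK-418 replicate 1. By group its share was 9.73% to 22.5% in wild-type vehicle, 6.72% to 21.4% in mutant vehicle, 0% to 22.0% in wild-type TAK-418 and 9.95% to 35.9% in mutant TAK-418 libraries. The groups overlapped, with the highest value in mutant TAK-418 replicate 2.

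Beta genes were listed patchily. Of the 22 genes, 4 (Pcdhb1, Pcdhb12, Pcdhb15 and Pcdhb21) were listed in 0 libraries, 8 in 1 or 2, and 10 in 3 or more, the most being 11. Pcdhb9 had the highest mean, 2.03, with listed values from 0.174 to 6.04 in 11 libraries, so the same gene was near the bottom of the scale in some libraries and above 4 in others of the same group. Pcdhb7 was listed in 7 libraries and reached 3.66, and Pcdhb8 in 10 libraries and reached 2.44. The number of single-exon transcripts over all genes, the structure of most beta transcripts, varied from 2217 to 7580 between libraries, and its part in the beta listing was not tested.

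The authors' deposited tables, which pool the libraries of a group, showed even beta levels. In these tables the Pcdhb12 locus had 2.67 to 2.69 FPKM in wild types and 2.49 to 2.497 in mutants under vehicle, and 2.82 to 2.85 in wild types and 2.87 to 2.88 in mutants under TAK-418, although no single library listed a Pcdhb12 transcript. Pcdhb15 had 0.956 to 1.25 FPKM over the groups in the authors' deposited tables. Summed over beta loci, the deposited FPKM was 37.5 to 37.8 in wild-type vehicle, 35.1 to 35.2 in mutant vehicle, 38.2 to 38.5 in wild-type TAK-418 and 37.5 to 37.7 in mutant TAK-418. The mean beta sum of the single libraries was 7.81, 7.62, 12.6 and 13.4 in the same order, well below the pooled values. Deposited FPKM and scaled abundance are different measures, and the library sums leave out transcripts assigned to no gene. For the joint locus of alpha and gamma genes the library sums (236.7 to 273.7) lay above the deposited FPKM (206.8 to 215.8).

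**Figure D3:**
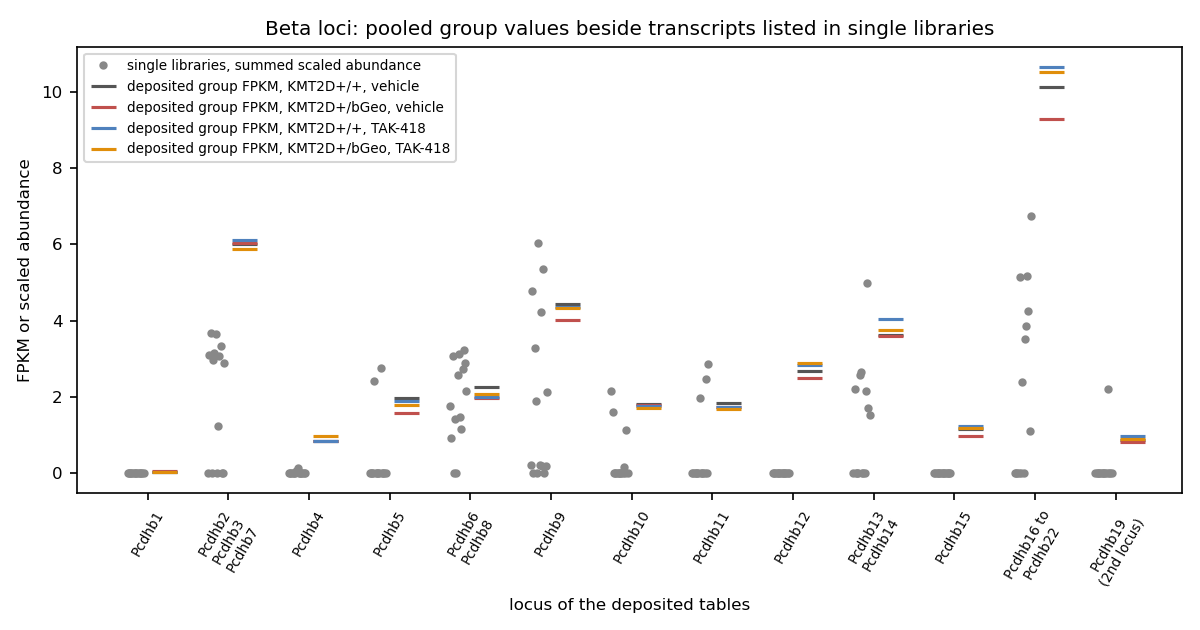
For each of the 13 beta loci of the authors' deposited tables, the pooled FPKM of the 4 groups (coloured dashes) beside the summed scaled abundance of its genes in each of the 14 libraries (grey points). The dashes of a locus lie close together, at 2.49 to 2.88 for Pcdhb12, while single libraries scatter between 0 and values up to 6.73. Pcdhb19 appears in both of its loci.

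In those tables all 36 alpha and gamma genes form 1 joint locus. Its FPKM was 208 to 209 in wild-type vehicle, 207 in mutant vehicle, 214 to 216 in wild-type TAK-418 and 211 in mutant TAK-418, so the deposited tables cannot show a change of isoform. The authors tested 13 member loci in each of their 4 deposited tables, and 0 passed a q of 0.05 or an unadjusted p of 0.05. Among all loci tested for mutant vehicle against wild-type vehicle, 0.224% passed the q and 4.32% the unadjusted p. These shares were 0.324% and 4.49% for mutant TAK-418 against wild-type vehicle, 0.611% and 6.48% for mutant vehicle against wild-type TAK-418, and 0.218% and 4.1% between the treated groups. The smallest authors' p of a member locus in the deposited tables was 0.678, for the locus of Pcdhb16 to Pcdhb22 in mutant vehicle (9.29 FPKM) against wild-type TAK-418 (10.6 FPKM). The largest fall of a member locus in the deposited table of mutant vehicle against wild-type vehicle was -0.31 on the log2 scale, and the authors' smallest p there was 0.785, for the locus of Pcdhb6 and Pcdhb8 (1.96 against 2.24 FPKM).

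Family totals from the single libraries differed between groups by at most 5.03% for alpha and gamma in the 5 pairwise comparisons. Under vehicle the mean alpha total was 52.7 ± 0.974 (SD, n = 3) in wild types and 55.4 ± 1.30 (SD, n = 3) in mutants. Under TAK-418 it was 54.7 ± 3.28 (SD, n = 5) and 53.1 ± 2.01 (SD, n = 3). Mutant vehicle libraries (54.1 to 56.7) lay above wild-type vehicle libraries (51.6 to 53.3), a ratio of 1.05 that turned slightly negative on the log2 scale, -0.013, without the library scaling. The alpha totals leave out the Pcdhac2 transcripts with the additional splice. Before library scaling these held 3.43 and 6.05 in wild-type vehicle replicates 1 and 3, and 0, 5.09 and 2.69 in the mutant vehicle libraries. In wild-type vehicle replicate 2 the splice lay on Pcdha1 and Pcdhac2, with 7.16 together. With these Pcdhac2 transcripts counted, the 2 vehicle groups would overlap. The mean gamma total was 200.1 ± 6.63 (SD, n = 3) and 199.6 ± 4.54 (SD, n = 3) under vehicle, and 206.5 ± 14.8 (SD, n = 5) and 199.4 ± 7.51 (SD, n = 3) under TAK-418, wild types first, with overlap in every comparison. In whole hippocampus, fewer cells of a type and less RNA per cell cannot be told apart.

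The beta total was 4.10, 12.6 and 6.72 in wild-type vehicle, 3.29, 13.9 and 5.73 in mutant vehicle, 19.3, 3.47, 10.4, 11.0 and 18.9 in wild-type TAK-418, and 14.9, 6.999 and 18.3 in mutant TAK-418 libraries. Treated groups had the higher means, 12.6 and 13.4 against 7.81 and 7.62, and overlapped with the vehicle groups. Joint transcripts assigned to no gene are left out, such as that over Pcdhb20 and Pcdhb16 in mutant vehicle replicate 3 (4.02 before scaling). With multi-exon transcripts alone the log2 ratio of treated to vehicle mutants moved from 0.82 to 4.04. These transcripts held 18.95% of the beta abundance, so that ratio rests on a small part of it. In the same setting the ratio of mutants to wild types under vehicle was strongly negative, as given below.

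**Figure D4:**
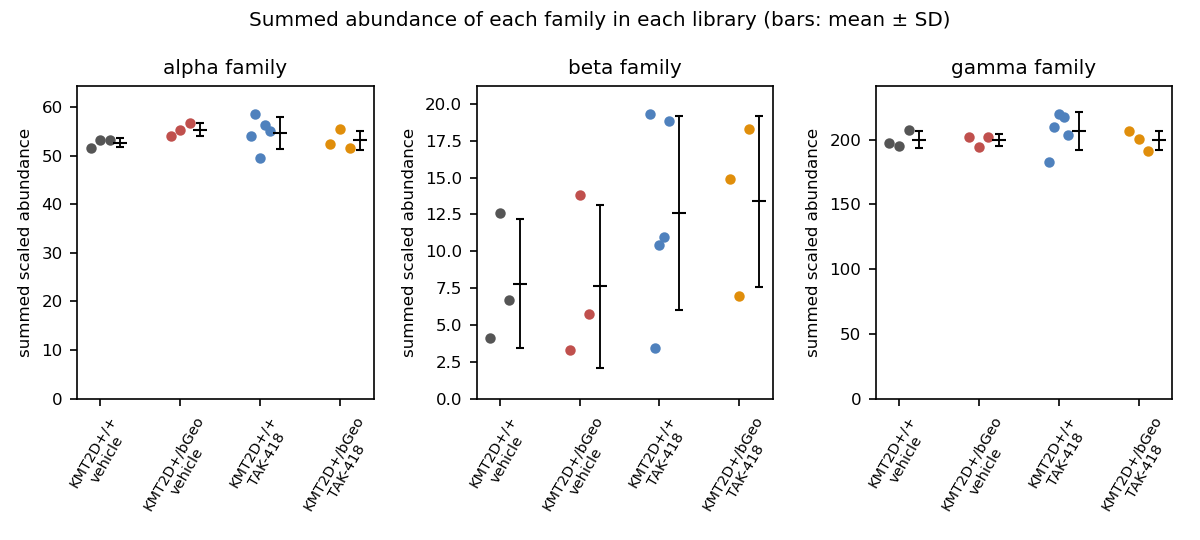
Summed scaled abundance of the alpha, beta and gamma genes in each library (points, by group), with the mean and SD beside them (n = 3, 3, 5 and 3). Alpha totals lie between 49.6 and 58.5 and gamma totals between 182.7 and 219.4, while beta totals run from 3.29 to 19.3.

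Single members were compared with limma across all 16510 genes that had a value in at least 3 libraries, a filter that 44 members passed (13 alpha, 10 beta and 21 gamma). The genotype effect under vehicle called 0 members at an adjusted p of 0.05 (limma), where 0% of all genes were called, and 6 members had an unadjusted p under 0.05. The drug effect in wild types also called 0 members, where 0.00606% of genes were called, and 7 had an unadjusted p under 0.05. In each of the other contrasts 1 member was called, the same gene Pcdhb13. The share of all genes called was 0.00606% for the drug effect in mutants, for treated mutants against vehicle wild types and for the interaction. It was 0.0121% for the genotype effect under TAK-418. These shares include Pcdhb13, which was the only gene called in the first 3 of these contrasts and 1 of 2 genes called in the last.

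Pcdhb13, a beta protocadherin of one exon (37442500 to 37446209 on chromosome 18, ENSMUSG00000047307.2), was listed in mutant TAK-418 libraries and in no other. Its scaled abundance was 2.28, 1.70 and 1.52 in the 3 mutant TAK-418 libraries, and the other 11 libraries held no transcript of any structure over its exon. The gene passed the filter only through the group in which it was listed, so that it had to differ once it was tested. The fitted difference to mutant vehicle was 1.61 on the log2(abundance + 0.884) scale with a standard error of 0.11 (limma adjusted p = 7.34e-05), and 4.42 or 0.27 with a pseudocount smaller or larger by a factor of 10, so it is no measure of fold. The interaction had an adjusted p of 0.0019 (limma). Fitted to the compared groups alone, the adjusted p (limma) was 0.0532 for the drug effect in mutants and 0.0741 for treated mutants against vehicle wild types. Without any single one of the mutant TAK-418 libraries the gene no longer passed the filter.

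The pooled tables did not single out that gene. In the authors' deposited tables the joint locus of Pcdhb13 and Pcdhb14 had 3.62 to 3.65 FPKM in wild-type vehicle, 3.598 to 3.61 in mutant vehicle, 4.01 to 4.04 in wild-type TAK-418 and 3.74 to 3.76 in mutant TAK-418. Its neighbour Pcdhb14 was listed in 5 libraries of all 4 groups, at 2.204 in wild-type vehicle replicate 2, 2.57 in mutant vehicle replicate 3, 2.65 and 2.14 in wild-type TAK-418 replicates 1 and 5, and 2.72 in mutant TAK-418 replicate 1. Counted by its own exon it was listed in 7 libraries, now with all 3 mutant TAK-418 libraries, the highest at 5.33. Pcdhb12, on its other side, was listed in 0 libraries.

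At an unadjusted p under 0.05 (limma), 6 of 44 members differed in the genotype effect under vehicle, 5 in the drug effect in mutants, 7 in the drug effect in wild types, 2 in the genotype effect under TAK-418, 4 between treated mutants and vehicle wild types, and 5 for the interaction. These were 13.6%, 11.4%, 15.9%, 4.55%, 9.09% and 11.4% of the members tested. Among all genes the shares were 5.5%, 4.39%, 8.43%, 4.94%, 5.39% and 4.45%. The counts of the contrasts other than genotype under vehicle and the drug in wild types include Pcdhb13, which passed the filter only through the group listing it. Several of these members were alpha or beta genes missing from some libraries, such as Pcdha11, Pcdhb10 and Pcdhb11. Without the 2 libraries with the highest choroid plexus sums, the member counts became 2, 2, 4, 3, 3 and 5 of 44 in the same order. Among 16384 genes the counts were then 894, 703, 1485, 865, 874 and 893.

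Under vehicle, the gene with the smallest p among those higher in mutants was Pcdhga7, an A-type gamma isoform. It had 5.02, 5.90 and 5.12 in wild-type vehicle, 8.43, 6.81 and 6.65 in mutant vehicle, 6.97 to 9.32 (median 7.09) in wild-type TAK-418, and 7.05, 5.67 and 6.21 in mutant TAK-418 libraries. All mutant vehicle and all wild-type TAK-418 values lay above the wild-type vehicle values, and mutant TAK-418 overlapped with them. The fitted genotype difference was 0.39 with a standard error of 0.12 (limma adjusted p = 0.705) and the interaction -0.62 with a standard error of 0.16 (limma adjusted p = 0.888), so neither passed the adjusted threshold. On the lower side it was Pcdhb10, listed in wild-type vehicle replicates 1 and 2 (2.14 and 1.60), in wild-type TAK-418 replicate 5 (0.164) and in mutant TAK-418 replicate 2 (1.13). Its fitted differences were -1.09 for genotype under vehicle and -1.04 for the drug in wild types, both above the adjusted threshold (limma adjusted p = 0.820 and 0.463).

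Among wild types, Pcdhgb2, a B-type gamma isoform, had the smallest p. It had 4.50, 3.76 and 4.79 in wild-type vehicle and 6.03, 5.49, 6.48, 7.21 and 7.61 in wild-type TAK-418 libraries, with no overlap. The mutant libraries had 5.57, 4.96 and 4.00 under vehicle and 6.09, 4.92 and 4.94 under TAK-418, which overlapped. The fitted drug difference in wild types was 0.51 with a standard error of 0.12 (limma adjusted p = 0.282).

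Lower with the drug in mutants was Pcdha12, at 3.55, 3.73 and 3.94 in mutant TAK-418 against 4.47, 4.25 and 5.01 in mutant vehicle libraries, without overlap (fitted difference -0.24, standard error 0.10, limma adjusted p = 1). Pcdhga12, the last A-type gamma isoform, had 7.38, 6.09 and 6.16 in mutant TAK-418 libraries, against 7.13 to 9.12 in wild-type TAK-418 and 7.41 to 8.79 in wild-type vehicle libraries. Its fitted differences were -0.25 and -0.28, with standard errors of 0.09 and 0.10 (limma adjusted p = 0.924 and 0.828).

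Groups did not overlap for 5 of 44 members under the genotype effect with vehicle (8.93% of all genes tested), 4 under the drug effect in mutants (8.21%), 2 under the drug effect in wild types (6.34%), 1 under the genotype effect with TAK-418 (4.59%) and 5 between treated mutants and vehicle wild types (9.53%). The member shares were 11.4%, 9.09%, 4.55%, 2.27% and 11.4%, near these backgrounds. Pcdhb13, which passed the filter only through the group listing it, was among these members in each comparison with mutant TAK-418. It was the only such member for genotype under TAK-418. Under vehicle the members without overlap were Pcdha11, Pcdhga11 and Pcdhga7, higher in mutants, and Pcdhgb4 and Pcdhga4, lower. Pcdha11 was barely apart, with 1.55, 0 and 0 in wild-type vehicle against 1.551 to 3.22 in mutant vehicle libraries. Pcdhgb4 was not listed in mutant vehicle replicate 3. The median fitted difference of the members tested was 0.00 for genotype under vehicle and for the drug in mutants, 0.08 for the drug in wild types, -0.08 for genotype under TAK-418, -0.07 for the interaction and 0.04 for treated mutants against vehicle wild types, where the median of all genes was 0.00 in each. Between 16 and 25 of the 44 members had a positive difference, depending on the contrast.

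**Figure D5:**
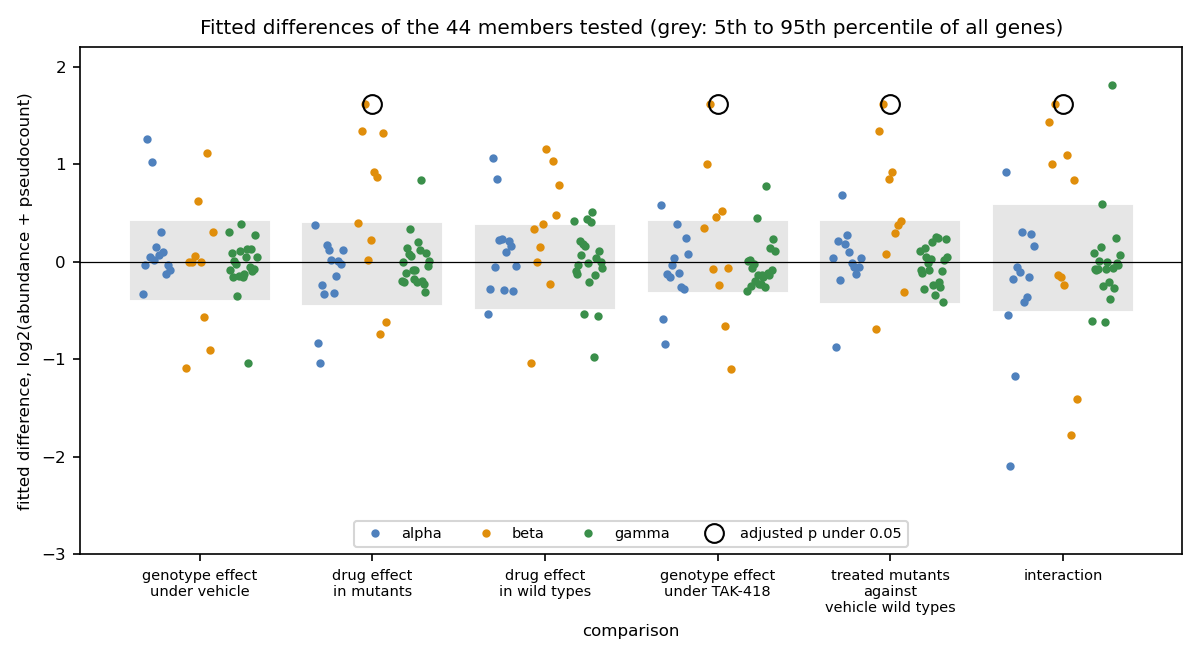
Fitted log2 differences of the 44 members tested (points, coloured by family) in the 6 contrasts, with the 5th to 95th percentile of all 16510 genes in grey and a ring at an adjusted p under 0.05 (limma). Most points lie inside the grey band and the only ringed gene is Pcdhb13, at 1.61 in 4 contrasts.

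Among genes that control isoform choice none passed the threshold. The list held 23 genes, among them CTCF, cohesin subunits, DNA methyltransferases and the repressor Smchd1, and all 23 were tested. In the 6 contrasts 0 of 23 passed the adjusted threshold (limma), and at an unadjusted p under 0.05 there were 4 higher with the drug in wild types (8.43% of all genes passed in either direction) and 1 lower in the interaction (4.45% of all genes). Ctcf, whose product loops enhancers to the chosen promoters, ranged only from 28.0 to 30.9 over the libraries. Smchd1 ranged from 8.72 to 10.48. The smallest p belonged to Dnmt1, the maintenance DNA methyltransferase, with a fitted drug difference of 0.14 in wild types (standard error 0.04, limma adjusted p = 0.426). The list's median difference there was 0.05, against 0.00 for all genes.

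Of 26 genes for signalling partners of protocadherins (the WAVE complex, focal adhesion kinases, the proteases that cleave them and others), all were tested and 0 passed the adjusted threshold (limma) in any contrast. At an unadjusted p under 0.05, 3 were higher with the drug in wild types (8.43% of all genes in either direction), 1 was lower in the genotype effect under TAK-418 (4.94%) and 1 was lower in the interaction (4.45%). The smallest p was that of Nlgn2, a postsynaptic adhesion protein of inhibitory synapses, which was lower in mutant than in wild-type mice under TAK-418 by a fitted -0.25 (standard error 0.07, limma adjusted p = 0.820). Nlgn2 had 53.3, 60.9 and 51.0 in mutant TAK-418 against 60.2 to 68.8 in wild-type TAK-418 libraries.

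Of 22 non-clustered protocadherins and related large cadherins, 21 were tested and 0 passed the adjusted threshold (limma) in any contrast. Pcdh1, an adhesion protein outside the clusters, had the smallest p: 54.9, 54.6 and 62.2 in wild-type vehicle against 67.9 to 89.96 in wild-type TAK-418 libraries, a fitted drug difference of 0.41 (standard error 0.11, limma adjusted p = 0.315). In this contrast 4 of the 21 genes were higher and 2 lower at an unadjusted p under 0.05 (limma), where 8.43% of all genes passed in either direction. In the genotype effect under vehicle 2 were lower (5.5% of all genes), and in the drug effect in mutants 1 was higher (4.39%). The genotype effect under TAK-418 (4.94%) and treated mutants against vehicle wild types (5.39%) each had 1 higher and 1 lower. The interaction had 1 higher and 2 lower (4.45%).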

How the data were processed

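RNA from 14 hippocampi was sequenced, 1 library per mouse, and groups were taken from the labels (5 treated wild types, although the series text speaks of at most 4 mice a group). Per the labels, 2 library kits were in use, with no statement of which library was made with which, and the part of the kit in any difference was not tested. Whether mice shared litters or processing days is not given in the sources used here. Reads were aligned to mm10 with TopHat2 2.1.0, per the submitters' processing notes, and CLASS 2.1.7 assembled the transcripts, per the file headers. The deposited transcript files give an abundance score per transcript. On a relative scale of depth, 95.8% to 99.3% of low single-exon values fell on whole steps, with 95.8% to 97.6% in wild-type TAK-418 replicates 1, 2, 4 and 5 and at least 98.7% in the other libraries. The authors' 4 deposited tables hold 1 FPKM per group, which pools libraries, a log2 fold change, and for every locus a p-value with its q-value, per the file headers. The layout is that of Cuffdiff. In 6698 loci each group's FPKM followed its own libraries best.

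Transcripts were assigned to GENCODE M21 genes by shared introns, or by at least 50% overlap for single exons, and summed. A transcript that matched several genes equally, or none, was assigned to no gene. One of 2 genes that GENCODE names Pcdha11 was taken as Pcdha10 by its RefSeq start. Scaling used each library's median ratio over 13209 genes. Genes with a value in at least 3 libraries (16510 of 18658) were tested with limma 3.58.1 (eBayes with trend) on log2(value + 0.884), with all 14 libraries in one fit. P-values were adjusted by Benjamini-Hochberg over all genes to 0.05. This fit was tested on simulated data with known changes. How the authors divided reads between similar exons is not given in the sources used here.

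The members, gene lists and rules were chosen with earlier results of these data known. Named were the C-type isoforms, Pcdhb12 to Pcdhb14, Ctcf, Smchd1, the 3 highest members per family, the widest spread per family, members past a threshold, the smallest p per contrast and direction, and the smallest p of each gene list. Other genes were named after their values were seen. Alternatives varied the pseudocount, filter, scaling, transcripts counted, samples fitted and single libraries. Leaving out the 2 libraries with the highest Ttr was chosen after seeing the data.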

Additional observations from a re-analysis of the deposited data

Results flagged for a closer look

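In the 5 wild-type TAK-418 libraries, 4 values stood apart from the rest by more than a Dixon ratio of 0.71 allows. Chance does so in about 1 in 20 groups, a rate that does not hold for Pcdhb10, since the other 4 libraries listed it at 0. The check covered every member named by rule, the family totals, the numbers of members listed per family and relative depth. Many more values than these 4 were therefore open to being flagged. Replicate 1 had the highest relative depth, 167.6 M. Replicate 5 had the lowest Pcdhac2 scaled abundance, 17.6, and was the only one of the 5 to list Pcdhb10, at 0.164. Replicate 4 had the highest Pcdhga7 scaled abundance, 9.32.

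For Pcdhb13 the interaction of drug and genotype had a fitted size of 1.61 on the log2 scale (limma adjusted p = 0.0019), where the gene was listed in 3 of 3 mutant TAK-418 libraries and 0 of the other 11. The gene passed the filter of 3 libraries only through the mutant TAK-418 group, so it had to differ once it was tested.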

How the results depend on the processing

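No paired analysis was possible because the replicate numbers follow accession order and mark no shared animal, litter or day. The 4 counts of 1 member called were those of all contrasts but genotype under vehicle and the drug in wild types. They became 0 with multi-exon transcripts only and with a value required in at least 7 libraries. In both settings Pcdhb13 had a value in too few libraries to be tested, so this outcome was fixed in advance. The counts of mutant TAK-418 against either vehicle group also became 0 when only the compared groups were fitted. Leaving out single libraries gave 0 to 1 calls, with 0 for each mutant TAK-418 library, where Pcdhb13 had a value in too few libraries to be tested. Leaving out the 2 libraries with the highest Ttr changed no count of members called. The member counts at an unadjusted p under 0.05 changed in most contrasts and are given above. Counts of 0 kept that value under all alternatives run, as did the authors' tables at q 0.01 or an unadjusted p of 0.05. The median of 6 beta genes listed per library became 1 with multi-exon transcripts only. Without library scaling the log2 ratio of family totals moved, for genotype under vehicle, to -0.013 in alpha and -0.091 in gamma, for genotype under TAK-418 to -0.14 in both, and for treated mutants against vehicle wild types to -0.059 in alpha and -0.074 in gamma. The alpha drug ratio in wild types became 0.11 with equal totals and -0.0025 by own exon. With multi-exon transcripts only, beta ratios became -3.05 for genotype under vehicle and 4.04 for the drug in mutants. Leaving out single libraries gave beta ratios of 0.45 to 1.57 for the drug in mutants and 0.38 to 1.22 in wild types, the highest values without replicate 2 of the vehicle group in both. For genotype they ran from -0.79 (without mutant vehicle replicate 2) to 0.49 (without wild-type vehicle replicate 2) under vehicle, and from -0.20 (without mutant TAK-418 replicate 3) to 0.40 (without mutant TAK-418 replicate 2) under TAK-418, so that their direction turned on single libraries. The cause of the changes in family ratios was not tested. For members named for the smallest p of a contrast and direction, the difference in that contrast never changed direction. Other named differences, such as those of Pcdhgc3, Dnmt1, Nlgn2 and Pcdh1, were not followed under the alternatives. The part of depth in the listing of beta genes was not tested.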
